A study of Mus musculus with 13 samples.

Results

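Expression of 8 transcription factor genes of naive and stem-like T cells, Tcf7, Lef1, Bach2, Satb1, Myb, Foxp1, Foxo1 and Id3, was followed in CD4+ T helper cells from spleens of mice bearing multiple myeloma. The 8 genes were chosen by name from a table of 56748 genes, and all 8 were among the 14059 genes that passed the filter on low counts. RNA was sequenced in 13 libraries of 5 groups, and 4-1BB antibody here means an agonist antibody against a costimulatory receptor of activated T cells. Every mouse carried a Thy1.1 reporter allele of Foxp3, was depleted of NK1.1-bearing cells by an antibody (50 µg on days −2 and 5), and was given Vk12653 myeloma cells, a transplantable mouse plasma cell tumour, on day 0. The 4-1BB antibody or a control IgG followed at 20 µg on days 10, 13 and 16, and spleens were taken on day 18. The sort took CD4+ T cells without the Thy1.1 signal, which leaves out cells that express the Foxp3 reporter.

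The groups were cells of Eomes-TKO mice given 4-1BB antibody (n = 2 libraries), GFP+ cells of Eomes-GFP mice given 4-1BB antibody (n = 3), GFP− cells of the same Eomes-GFP mice (n = 3), cells of Eomes-TKO mice given IgG (n = 3), and cells of Eomes-GFP mice given IgG, which were not divided by GFP (n = 2) and are called undivided control cells. Eomes-GFP is a reporter of Eomes, which encodes a T-box factor found in cytotoxic and memory T and NK cells. How the Eomes-TKO genotype was made, and which cells lack the gene, is not given in the sources used here. A GFP+ library and the GFP− library of equal number carried 1 library prefix, and both were read as coming from 1 mouse. The labels do not otherwise state that replicates were separate animals, so the p-values reflect only how these libraries spread, which may be technical.

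In mouse T cells, Tcf7 and Lef1 encode related HMG-box factors that recruit β-catenin or repressors of the TLE family to Wnt-responsive genes, and Tcf7 marks the progenitor state of chronically stimulated T cells. Foxo1 encodes a forkhead factor that is kept out of the nucleus by AKT signalling and otherwise activates homing and survival genes of naive cells, while Foxp1 encodes another forkhead factor that holds naive cells in quiescence. Bach2 encodes a repressor that competes with AP-1 factors and restrains effector genes such as Prdm1, Satb1 encodes a chromatin organiser, Myb a factor of self-renewing memory and progenitor T cells, and Id3 an inhibitor of E proteins.

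Promoter windows of RefSeq on GRCm38.p6, running from 250 bases before to 50 bases after each annotated start, were found for all 8 genes, 18 windows in all, some of which overlap. They were searched on both strands for a TCF/LEF motif (CTTTGAT), a FOXO motif (GTAAACA), a T-box motif (GGTGTGA), a BACH and AP-1 motif (TGAGTCA) and an E-box (CAGGTG). The TCF/LEF and the BACH and AP-1 letters were in 0 of the 18 windows, against 3.73% and 5.20% of all 32851 mouse windows of this length. FOXO letters were in 2 windows, those of Myb and of a Tcf7 start, against 3.65% of all windows, and T-box letters in 1, that of Myb, against 3.98%. E-box letters were in 5 windows, of Tcf7, Lef1, Satb1 (2 windows) and Foxp1, against 20.2% of all windows. A match of letters is not a binding site, and none of these counts is a test. The window of Myb, the only member that was higher in GFP+ cells, is printed first. That of the Tcf7 start that holds a FOXO and an E-box match follows. The last is 1 of the 5 windows of Satb1, the member with the largest fall, and 1 of the 2 with an E-box match. Each is printed 5′ to 3′ on the strand of the gene, with the matches in capitals.
Myb, chr10:21160935-21161234, minus strand: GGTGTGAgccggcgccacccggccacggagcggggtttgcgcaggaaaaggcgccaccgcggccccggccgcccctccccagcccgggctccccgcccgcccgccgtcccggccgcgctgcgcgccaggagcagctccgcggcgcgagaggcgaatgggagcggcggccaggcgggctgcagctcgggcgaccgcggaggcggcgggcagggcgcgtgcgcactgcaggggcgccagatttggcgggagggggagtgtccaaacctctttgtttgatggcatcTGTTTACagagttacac
Tcf7, chr11:52282546-52282845, minus strand: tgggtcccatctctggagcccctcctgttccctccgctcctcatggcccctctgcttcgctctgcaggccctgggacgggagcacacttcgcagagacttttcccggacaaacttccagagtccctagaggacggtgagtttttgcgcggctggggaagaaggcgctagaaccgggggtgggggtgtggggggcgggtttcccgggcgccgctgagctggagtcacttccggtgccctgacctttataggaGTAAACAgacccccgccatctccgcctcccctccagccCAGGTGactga
Satb1, chr17:51833241-51833540, minus strand: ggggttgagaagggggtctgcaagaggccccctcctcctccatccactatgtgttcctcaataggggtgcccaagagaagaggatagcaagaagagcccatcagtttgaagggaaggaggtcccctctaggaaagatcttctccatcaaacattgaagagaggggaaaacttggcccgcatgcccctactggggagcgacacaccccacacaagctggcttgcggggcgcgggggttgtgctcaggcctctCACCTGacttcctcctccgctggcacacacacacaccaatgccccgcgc
In the Myb window the T-box letters stand at the upstream end and the FOXO letters, in reverse complement, after the start.

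Total counts per library ran from 6080956 to 10881129, and 3 counts correspond to 0.271 to 0.468 CPM (counts scaled to a common effective library size), a floor that covers counting error only. Eomes itself, the gene behind the sort and the TKO label, had 3.59 and 8.03 CPM in Eomes-TKO cells under 4-1BB antibody, 570.3, 706 and 685 CPM in GFP+ cells, 3.54, 1.83 and 2.26 CPM in GFP− cells, 1.36, 2.96 and 3.19 CPM in Eomes-TKO cells under IgG, and 13.99 and 16.8 CPM in undivided control cells. It was thus high in all 3 GFP+ libraries and lower in each Eomes-TKO library than in both undivided control libraries. The summed level of 7 CD4 T cell markers was 4627 to 5342 CPM in GFP+ cells and 3299 to 3497 CPM in GFP− cells. Among lists of other cell types, 8 myeloid markers summed to 69.8 to 87.4 CPM in GFP+ cells and 28.3 to 48.2 CPM in GFP− cells. The 6 plasma cell markers summed to 174.5 to 183.6 CPM in GFP+ cells and 6.14 to 8.89 CPM in GFP− cells, but Slamf7, which activated T cells also express, made up nearly all of this, and Tnfrsf17 was at 0 in both groups. The part of these markers in the results was not tested.

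The sort by GFP asked how cells that express Eomes differ from the remaining helper cells of the same mice under 4-1BB antibody. Of the 8 factors, 6 were lower in GFP+ cells (Tcf7, Lef1, Bach2, Satb1, Foxp1 and Foxo1), Myb alone was higher, and Id3 did not pass the test. Over all tested genes 16.5% were lower and 20.7% were higher (37.1% in all) by the same rule, edgeR's quasi-likelihood test with a Benjamini-Hochberg adjusted p under 0.05. The median log2 fold change of the 8 was −1.35, and that of all genes was 0.02. Of all calls 55.7% were higher, against 41.4% with upper-quartile scaling, which moved the median of all genes by −0.137, and the 7 members passed under both. In these sorted populations, fewer cells with a gene's RNA and less RNA per cell cannot be told apart.

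**Figure D1:**
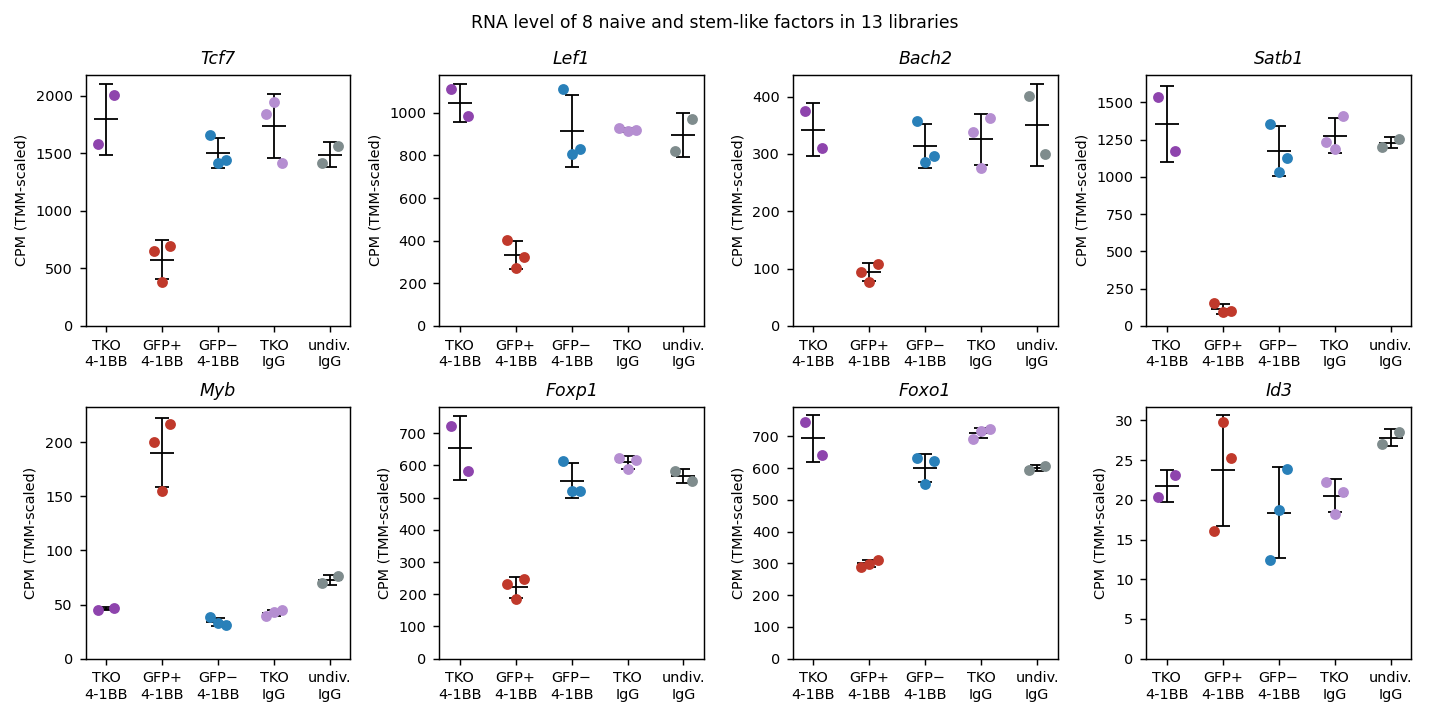
Level of each of the 8 factors in every library, in TMM-scaled CPM on a linear axis from 0 (each panel has its own scale). Points are libraries, and the line and bars are the mean and SD of each group (n = 2 or 3, undiv. is the undivided control). The 3 GFP+ libraries lie below all others in 6 panels, and above all others for Myb, while for Id3 they overlap the other groups. Over all tested genes, GFP+ and GFP− libraries did not overlap for 51.3%.

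Tcf7 had 655, 379 and 696 CPM in GFP+ cells (replicates 1 to 3), against 1655, 1418 and 1442 CPM in GFP− cells. The groups did not overlap, as for 7 of the 8 factors and 51.3% of all tested genes, and the second GFP+ library was well below the other two. The log2 fold change was −1.38 ± 0.20 (SE), a 2.61-fold lower level with an adjusted p of 0.000137. Lef1 had 402, 272 and 321 CPM in GFP+ cells, against 1110.2, 806 and 829 CPM in GFP− cells. Both the highest GFP+ and the highest GFP− value of Lef1 came from the first mouse, and the groups were again apart. Its log2 fold change was −1.46 ± 0.15 (adjusted p = 2.87e-06), close to that of Tcf7. The log2 ratio of Tcf7 to Lef1 was 0.70, 0.48 and 1.11 in GFP+ cells and 0.58, 0.82 and 0.80 in GFP− cells, so the ranges overlapped and the balance of these related factors did not separate the groups.

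Satb1 showed the largest difference of the 8, with 151, 93.0 and 98.5 CPM in GFP+ cells, against 1356, 1035 and 1124 CPM in GFP− cells. Each GFP+ library was far below each GFP− library, and the log2 fold change of −3.36 ± 0.19 is a 10.3-fold lower level (adjusted p = 1.04e-08). Transcripts annotated on the same strand inside the Satb1 locus, 5 of them tested, were lower too, by −3.01 to −3.77 on the log2 scale. For each of these 5 the highest GFP+ library was below the lowest GFP− library, as groups were apart for 51.3% of all tested genes, for example C230085N15Rik at 11.8 to 24.0 CPM in GFP+ cells and 172 to 299 CPM in GFP− cells. The same held for Gm20696 and Gm20705 in the Foxp1 locus, with log2 fold changes of −2.26 and −2.61. Gm38034 in the Foxo1 locus was lower by −1.17 (adjusted p = 0.0295), and Gm42449 in the Lef1 locus, at −1.28, did not pass (adjusted p = 0.0904). How the counting divided reads between a gene and transcripts inside it, and whether it used strand, is not given in the sources used here. The values of these transcripts may therefore not be independent of those of the member genes. Annotated antisense genes were at most 2.31% of the level of their partner among the 8, the highest share being that of Lef1os1 to Lef1. Same-strand transcripts reached larger shares, up to 22.05% of Satb1 (C230085N15Rik) and 15.34% of Foxp1 (Gm20696) in the library where each share was highest.

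Bach2 had 94.8, 77.0 and 108 CPM in GFP+ cells, against 357, 287 and 296 CPM in GFP− cells. It was lower in all 3 mice, with a log2 fold change of −1.75 ± 0.16 (adjusted p = 9.34e-07). Prdm1, the gene of the effector repressor that Bach2 opposes, had 128, 180.4 and 119 CPM in GFP+ cells, against 12.2, 13.3 and 12.2 CPM in GFP− cells, a log2 fold change of 3.50 ± 0.19 (adjusted p = 4.87e-09). The log2 ratio of Bach2 to Prdm1 was −0.44, −1.23 and −0.13 in GFP+ cells, whereas it lay between 3.95 and 5.19 in the 10 other libraries. The ratio is of counts not divided by length, so only its shift between libraries is read, and the GFP+ libraries stood apart from all others.

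The forkhead genes differed less. Foxp1 had 232, 186 and 246 CPM in GFP+ cells, against 615, 521 and 522 CPM in GFP− cells, a log2 fold change of −1.32 ± 0.12 (adjusted p = 9.05e-07). Foxo1 had 289.8, 299 and 310.1 CPM in GFP+ cells, against 632, 549 and 621 CPM in GFP− cells. Foxo1 was the most even member within GFP+ cells, with a coefficient of variation of 3.39% against 29.9% for Tcf7, and its log2 fold change was −1.003 ± 0.09 (adjusted p = 8.94e-07), the smallest of the 6 that fell.

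Myb went the other way, with 201, 155 and 217 CPM in GFP+ cells, against 38.5, 32.5 and 31.1 CPM in GFP− cells. Every GFP+ library exceeded every GFP− library, and the log2 fold change was 2.49 ± 0.13, a 5.6-fold higher level (adjusted p = 4.29e-09). Id3 had 16.1, 29.9 and 25.3 CPM in GFP+ cells and 12.4, 18.8 and 23.9 CPM in GFP− cells. The Id3 groups overlapped, and the log2 fold change of 0.36 ± 0.23 (95% interval −0.14 to 0.86, adjusted p = 0.246) leaves room for a difference in either direction. Id2, the paralog of Id3 that is linked to effector cells, had 217, 156 and 196 CPM in GFP+ cells and 123, 139.6 and 114 CPM in GFP− cells, a log2 fold change of 0.60 ± 0.21 (adjusted p = 0.0432). The Id2 call was lost with upper-quartile scaling (0.47, adjusted p = 0.105) and without the first or the third GFP+ library or any 1 of the GFP− libraries (adjusted p = 0.0552 to 0.161).

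Within each mouse the 7 genes that passed the test moved the same way. The log2 ratio of GFP+ to GFP− cells was −3.17, −3.48 and −3.51 for Satb1, 2.38, 2.25 and 2.80 for Myb, and −1.34, −1.90 and −1.05 for Tcf7 (mice 1 to 3). Foxo1 stayed between −1.12 and −0.87. The second GFP+ library was the lowest of its group for Tcf7, Lef1, Bach2, Satb1, Foxp1 and Myb and the highest for Id3 and Eomes. Without that library the log2 fold change was −1.19 for Tcf7, −3.26 for Satb1, 2.59 for Myb and 0.14 for Id3, and the 7 calls held.

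Against undivided control cells of IgG-treated mice, GFP+ cells had the same 6 factors lower and Myb higher, where 15.4% of all genes were lower and 18.8% higher (34.2% in all). The GFP+ libraries are those of the comparison above, so this is not independent of it. Satb1 had a log2 fold change of −3.43 ± 0.20 (adjusted p = 1.89e-08) against 1203 and 1257 CPM in undivided control cells, and Bach2 one of −1.91 ± 0.17 (adjusted p = 9.2e-07) against 401 and 300.1 CPM. The difference of Myb was smaller than against GFP− cells, at 1.39 ± 0.14 (adjusted p = 3.97e-06), with 69.7 and 76.1 CPM in undivided control cells. Id3 had 27.1 and 28.6 CPM in undivided control cells and a log2 fold change of −0.23 ± 0.26 (adjusted p = 0.535), the opposite sign to the comparison with GFP− cells, and neither passed the test.

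GFP− cells were next set against undivided control cells, which differ both in antibody and in that the GFP+ cells had been removed from one and not from the other, and these cannot be told apart. Myb was the only one of the 8 to pass, being lower in GFP− cells at 38.5, 32.5 and 31.1 CPM than in undivided control cells at 69.7 and 76.1 CPM. Its log2 fold change was −1.10 ± 0.14 (adjusted p = 0.00372), where 0.107% of all genes were lower and 0.654% higher. The call was lost without the second undivided control library (−1.04, adjusted p = 0.084) and with a required fold of 1.5 (adjusted p = 0.15). Of the other 7, 6 lay within −0.16 to 0.03 on the log2 scale, with 95% intervals that reached from −0.52 (Bach2) to 0.49 (Tcf7). Id3 had a log2 fold change of −0.59 ± 0.26 (unadjusted p = 0.0357, adjusted p = 0.502) and did not pass.

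**Figure D2:**
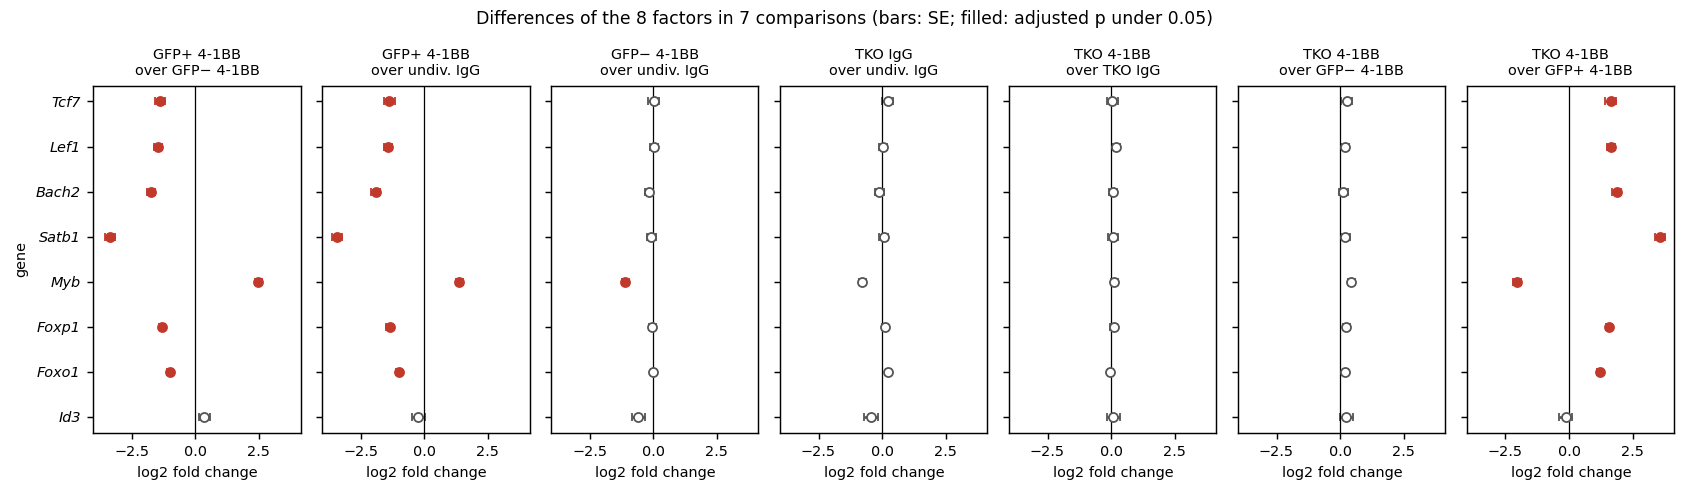
Log2 fold change of each of the 8 factors in 7 comparisons, with the group named first over the group named second. Bars are standard errors and filled points passed an adjusted p of 0.05. The 3 panels with GFP+ cells hold 7 filled points each, the GFP− panel holds 1 (Myb), and the other panels none.

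Eomes-TKO cells under IgG were compared with undivided control cells to read the genotype without 4-1BB antibody. None of the 8 passed by edgeR, where 2 genes (0.0142%) were lower and 0% higher among all tested. At an unadjusted p under 0.05, 2 of the 8 and 430 of all genes were past the line. Myb had 39.3, 42.9 and 44.6 CPM in Eomes-TKO cells, against 69.7 and 76.1 CPM in undivided control cells, so that the groups did not overlap, as for 4 of the 8 and 18.3% of all tested genes. The log2 fold change of Myb was −0.79 ± 0.14 (95% interval −1.09 to −0.49, unadjusted p = 5.69e-05, adjusted p = 0.2), and it ranked number 4 by p of all genes tested, 2 places behind Eomes. DESeq2 gave an adjusted p of 0.00368 for the same difference, and 1 of the 8 was then lower. Foxo1 had 692, 716 and 724 CPM in Eomes-TKO cells and 595 and 606 CPM in undivided control cells, a log2 fold change of 0.24 ± 0.10 (adjusted p = 1). For Tcf7 the 95% interval of the log2 fold change was −0.26 to 0.70, and for Satb1 −0.35 to 0.46.

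Within Eomes-TKO mice, 4-1BB antibody against IgG asked whether the antibody changed the factors in that genotype. No member passed by edgeR, limma-voom or DESeq2, where edgeR called 0.0427% of all genes higher and 0% lower. At an unadjusted p under 0.05, 0 of the 8 and 506 of all genes were past the line. Tcf7 had 1579 and 2010.0 CPM with 4-1BB antibody, against 1844, 1944 and 1418 CPM with IgG, and Satb1 had 1536 and 1176 CPM against 1231, 1189 and 1409.6 CPM. Those ranges overlapped. Myb had 45.0 and 47.03 CPM against 39.3, 42.9 and 44.6 CPM, which did not overlap, as for 15.9% of all tested genes, but differed by 0.12 ± 0.14 on the log2 scale (adjusted p = 1). Intervals were wide enough to hold changes of −0.43 to 0.52 (Tcf7) and −0.18 to 0.43 (Myb).

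Eomes-TKO cells under 4-1BB antibody were also set against each fraction of treated Eomes-GFP mice. The Eomes-TKO cells were not divided by GFP, so genotype and sort cannot be told apart in either comparison. Against GFP− cells all 8 log2 fold changes were positive, from 0.13 (Bach2) to 0.44 (Myb), but none passed, where 0.00711% of all genes were higher and 0.0356% lower. Myb had 45.0 and 47.03 CPM in Eomes-TKO cells, against 38.5, 32.5 and 31.1 CPM in GFP− cells (unadjusted p = 0.0089, adjusted p = 0.536). In all, 1 of the 8 and 980 of all genes had an unadjusted p under 0.05. Against GFP+ cells, 6 of the 8 were higher in Eomes-TKO cells and Myb was lower, where 15.7% of all genes were higher and 18.8% lower. Satb1 differed by 3.57 ± 0.20 on the log2 scale (adjusted p = 1.32e-08), Foxo1 by 1.21 ± 0.10 (adjusted p = 4.08e-07) and Myb by −2.05 ± 0.15 (adjusted p = 1.31e-07). Id3, at 20.3 and 23.1 CPM in Eomes-TKO cells, differed by −0.13 ± 0.26 (adjusted p = 0.749).

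Whether the response of Eomes-TKO cells to 4-1BB antibody differed from that of Eomes-GFP cells was tested as the difference of 2 log2 fold changes, Eomes-TKO treated over IgG minus GFP− over undivided control. Myb gave 1.22 ± 0.20 (unadjusted p = 2.48e-05, adjusted p = 0.116), and the other 7 lay between −0.04 and 0.68 with adjusted p = 1. GFP− cells are a sorted fraction, so this difference also holds the effect of the sort.

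Myb and Eomes levels were correlated across libraries. The Pearson correlation of their log2 levels was 0.980 over 13 libraries and 0.91 over the 10 libraries without GFP+ cells, a description of libraries that fall into groups. Of those 10, the undivided control libraries were highest for both genes. GFP− and Eomes-TKO IgG cells had mean Eomes of 2.54 and 2.50 CPM, with Myb at 31.1 to 38.5 and 39.3 to 44.6 CPM. These groups differ in genotype, antibody and sort, and had only 13 to 30 counts of Eomes per library. The difference between them was not tested. No other of 9363 candidate genes was closer to Myb, and the next were Zbtb1 (0.967) and Slamf7 (0.964). Eomes was also the gene that the sort used. The mean of undivided control cells lay 24.8% of the way, on the linear scale, from the GFP− to the GFP+ mean for Myb and 1.98% of the way for Eomes.

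**Figure D3:**
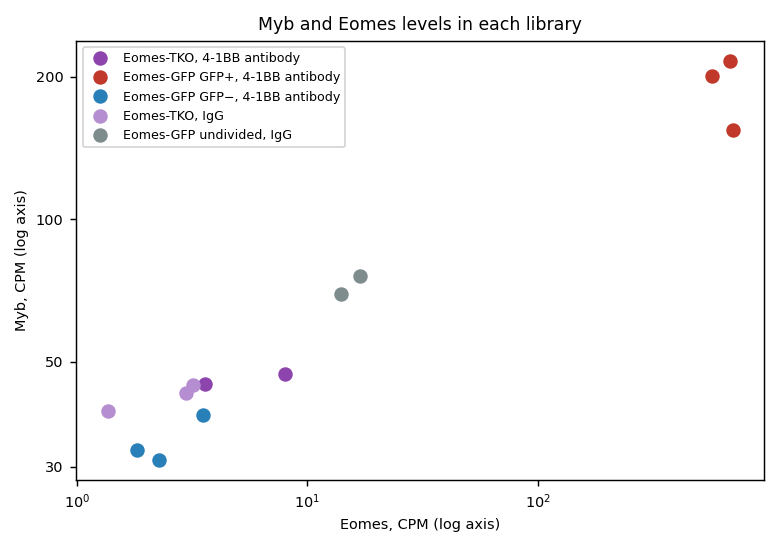
Myb level against Eomes level in the 13 libraries, both in CPM on log axes, one point per library. GFP+ libraries lie at 570.3 to 706 CPM of Eomes and 155 to 217 CPM of Myb, undivided control libraries at 13.99 and 16.8 CPM of Eomes, and the others at or below 8.03 CPM of Eomes and 47.03 CPM of Myb.

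Over 13 libraries, among which the GFP+ libraries stand apart, the log2 levels of the 6 genes that fell correlated with each other at 0.93 to 0.99 and with Myb at −0.90 to −0.84. Satb1 and Foxp1 had 0.98 over 13 libraries and 0.88 over the 10 without GFP+ cells, and Lef1 and Satb1 had 0.99 and 0.78. Other pairs had far lower values over the 10 libraries, with 0.95 and 0.41 for Tcf7 and Lef1, 0.93 and −0.32 for Tcf7 and Bach2, 0.96 and 0.31 for Lef1 and Bach2, and 0.96 and 0.26 for Bach2 and Foxo1. Id3 followed none of the 7 over 13 libraries, at −0.31 to 0.28. Over the 10 libraries without GFP+ cells its values ran from −0.45 (Lef1) to 0.56 (Myb). The nearest genes outside the list were Rapgef4, Mical3 and Trio for Satb1 (each 0.996), Ntrk3 (0.991) for Bach2, Pdk1 (0.991) for Foxo1, Nedd4l (0.993) for Foxp1, Patj (0.986) for Lef1 and Slc25a23 (0.979) for Tcf7. Btg2 was among the 3 genes closest to Id3 (0.878).

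Levels of different genes were compared per kilobase of merged exons, with exon lengths of GENCODE M21, whose build (GRCm38) precedes that of the counts. In GFP+ cells the order was Tcf7 at 220 ± 65.6 CPM per kb, Lef1 at 37.7 ± 7.49, Foxo1 at 34.6 ± 1.17, Myb at 21.3 ± 3.60, Foxp1 at 16.1 ± 2.30, Id3 at 13.2 ± 3.92, Bach2 at 9.39 ± 1.58 and Satb1 at 6.001 ± 1.68 (SD, n = 3). Tcf7 was clear of Lef1, and Foxo1 of Myb, while every other neighbouring pair in this order had overlapping ranges. In GFP− cells Tcf7 led at 573 ± 49.7 CPM per kb, Satb1 came next after Foxo1 at 61.6 ± 8.73 and Myb was last at 3.81 ± 0.443, and the order was the same in the other 3 groups. By this measure Myb and Satb1 changed places, Satb1 being last of the 8 in GFP+ cells and Myb last in each other group. The order depends on the annotated length, since merged exons join all isoforms, with 19027 bases for Satb1 and 2625 for Tcf7. In CPM not divided by length, Satb1 at 114 was above Bach2 at 93.3 and Id3 at 23.7 in GFP+ cells (means).

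**Figure D4:**
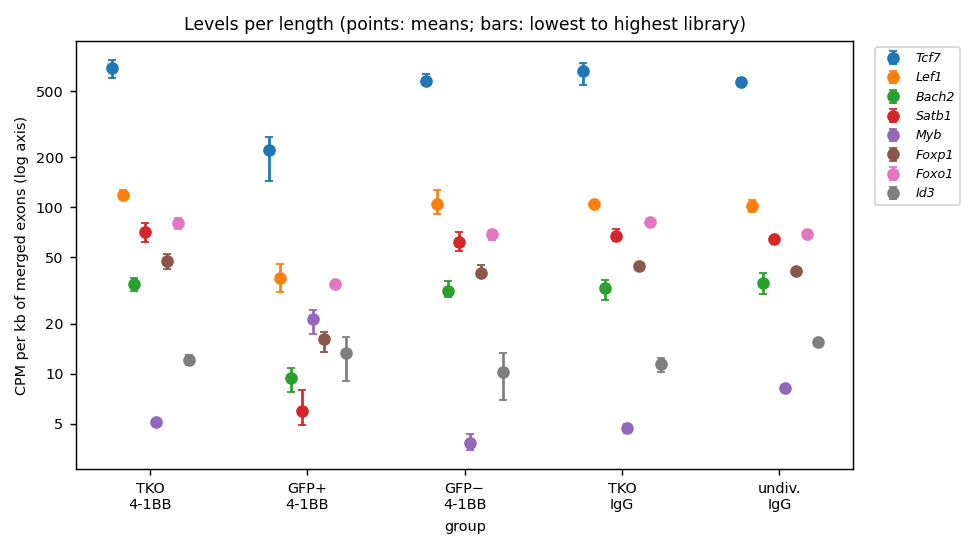
Mean level of the 8 factors per kilobase of merged exons in each group, on a log axis, with bars from the lowest to the highest library (undiv. is the undivided control). Tcf7 is highest everywhere, and Satb1 and Myb exchange rank between GFP+ cells and the 4 other groups.

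Genes around the 8 factors were taken from lists of paralogs, partners and targets, with GFP+ cells compared with GFP− cells. Over all tested genes 20.7% were higher and 16.5% lower in this comparison (37.1% in all). Among 10 tested paralogs, 3 were higher and 4 lower (median log2 fold change −0.20), or 1 and 4 with upper-quartile scaling and 3 and 2 by DESeq2. Leaving out any 1 of the 6 libraries gave 1 or 2 higher and 2 or 3 lower. Foxo3, which shares targets with Foxo1, had 96.7, 103 and 90.3 CPM in GFP+ cells, against 173, 176 and 187 CPM in GFP− cells, a log2 fold change of −0.89 ± 0.08 (adjusted p = 7.46e-07). Mybl2, the Myb relative of dividing cells, had 20.9, 25.9 and 12.7 CPM in GFP+ cells, against 5.49, 7.80 and 6.41 CPM in GFP− cells (change on the log2 scale 1.59 ± 0.26, adjusted p = 0.000249).

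Partners of Tcf7 and Lef1 and the Wnt pathway gave 5 higher and 6 lower of 21 tested (median −0.11). Of all tested genes, 20.7% were higher and 16.5% lower. The list gave 3 and 9 with upper-quartile scaling, and 3 higher without the second GFP+, the third GFP+ or the first GFP− library. TLE repressors differed in opposite directions. Tle3 had 826, 892 and 889 CPM in GFP+ cells, against 437, 425 and 437 CPM in GFP− cells, a log2 fold change of 1.01 ± 0.08 (adjusted p = 4.4e-07). Tle1 had 3, 1 and 1 counts in GFP+ libraries, against 141, 131 and 186 counts in GFP− libraries (adjusted p = 1.05e-08), and at so few counts its fold is not given. Tle4 passed as lower with upper-quartile scaling, with only the 2 groups in the fit, with the mouse as a block and without the second GFP+ library (adjusted p = 0.00559 to 0.0471). Otherwise Tle4 and Tle5 did not pass, with log2 fold changes of −0.20 ± 0.08 (adjusted p = 0.0793) and 0.13 ± 0.15 (adjusted p = 0.555). Bcl9, a β-catenin coactivator, was 14.7 ± 1.41 CPM in GFP+ cells and 84.9 ± 2.57 CPM in GFP− cells (change on the log2 scale −2.53 ± 0.10, adjusted p = 3.83e-10), and Axin2, a Wnt target and inhibitor, was 46.8 ± 8.62 and 89.2 ± 9.65 CPM (−0.93 ± 0.14, adjusted p = 0.000121). Rnf43, which removes Wnt receptors from the surface, was higher by 1.94 ± 0.23 on the log2 scale (adjusted p = 2e-05), while Znrf3, its paralog with the same role, was 17.2 ± 1.31 CPM in GFP+ cells and 88.6 ± 7.09 CPM in GFP− cells (−2.36 ± 0.14, adjusted p = 1.25e-08).

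Of 17 FOXO1 target genes, 11 were lower and 2 higher (median −0.51), or 8 and 1 with a required fold of 1.5. Over all tested genes 16.5% were lower and 20.7% higher. Il7r, the interleukin receptor of naive survival, had 50.7, 25.1 and 66.9 CPM in GFP+ cells, against 465, 411 and 466 CPM in GFP− cells (change on the log2 scale −3.23 ± 0.28, adjusted p = 3.74e-06), and Pik3ip1, an inhibitor of PI3K, fell by 2.10 on the log2 scale (adjusted p = 4.11e-09). Klf2, another target of FOXO1, was 309 ± 34.6 CPM in GFP+ cells and 316 ± 13.0 CPM in GFP− cells (change on the log2 scale −0.03 ± 0.11, 95% interval −0.27 to 0.20, adjusted p = 0.852). The targets Gabarapl1 and Ccng2 were higher, by 1.51 ± 0.28 and 0.68 ± 0.12. Of 10 PI3K and AKT regulators 3 were higher and 1 lower (median 0.12), near the share of all tested genes that passed (37.1%). The counts were 2 and 2 with upper-quartile scaling or without the second GFP+ library. They were 2 and 1 without the first or the second GFP− library, and 0 and 0 with a required fold of 1.5. The 3 that rose were Akt1 at 0.78, Skp2 at 0.80 and Inpp5d at 0.58. Skp2 did not pass with upper-quartile scaling (adjusted p = 0.0737), without the second GFP+ library (0.47, adjusted p = 0.219) or without any 1 of the GFP− libraries.

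All 8 BACH2 partners and related factors passed, 3 higher and 5 lower (median −0.60), or 1 and 3 with a required fold of 1.5. Of all tested genes, 37.1% passed, 20.7% as higher and 16.5% as lower. Batf was 71.9 ± 10.5 CPM in GFP+ cells and 24.3 ± 2.21 CPM in GFP− cells, while Junb was 598 ± 52.2 and 1981 ± 68.4 CPM and Maff 1.80 ± 0.828 and 19.0 ± 2.03 CPM. Against undivided control cells at 990.4 ± 12.3 CPM, Junb was higher in GFP− cells by 1.00 ± 0.19 on the log2 scale (adjusted p = 0.0282). Maff (1.86 ± 0.34) and Mafk (0.71 ± 0.13) were higher too. Thus 3 of the 8 partners were higher there and 0 lower, where 0.654% of all tested genes were higher and 0.107% lower. These 3 calls were lost on leaving out any 1 of the 5 libraries, with adjusted p-values of 0.0638 to 0.323 and log2 fold changes that stayed positive. Of the 3 E proteins that ID3 binds, only Tcf3 passed, at 0.40 ± 0.12 (adjusted p = 0.0205), and it did not pass with upper-quartile scaling (adjusted p = 0.0809), with only the 2 groups in the fit (adjusted p = 0.0692), without the second GFP+ library (0.20, adjusted p = 0.162) or without the first GFP− library (adjusted p = 0.0877).

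For the lists that follow, 20.7% of all tested genes were higher and 16.5% lower in GFP+ against GFP− cells. The list named opposing effector factors gave 10 higher and 1 lower of 13 (median 1.57), or 8 and 0 with a required fold of 1.5. Leaving out 1 library at a time gave 8 to 10 higher. Eomes, the gene behind the sort, was among the 10, and Tox was counted both here and among the progenitor genes. Naive surface and other genes gave 12 lower and 1 higher of 14 (median −2.65), or 11 and 0 with a required fold of 1.5. Among those lower were Igfbp4 at 5.19 ± 0.821 CPM in GFP+ cells and 597 ± 123 CPM in GFP− cells. Ccr7, the lymph node homing receptor, was at 34.1 ± 1.11 and 294 ± 20.96 CPM. Progenitor genes gave 10 higher and 3 lower of 14 (median 0.76), or 6 and 3 with a required fold of 1.5. Cxcr5, the follicle homing receptor, was 306 ± 45.0 CPM in GFP+ cells and 18.2 ± 4.19 CPM in GFP− cells (change on the log2 scale 4.08 ± 0.30, adjusted p = 1.4e-06), and Slamf6 was higher by 0.61 ± 0.14 (adjusted p = 0.00408), whereas Il7r and Ccr7 were among the 3 that fell. Among the 3 regulatory T cell markers, Ikzf2 was 569 ± 45.4 CPM in GFP+ cells and 68.7 ± 19.2 CPM in GFP− cells, but Foxp3 was 0.495 ± 0.0888 and 1.44 ± 0.453 CPM, near the level of 3 counts, and Il2ra was 3.38 ± 0.981 and 11.6 ± 5.05 CPM (−1.77 ± 0.36, adjusted p = 0.00139). Foxp3 passed as lower (adjusted p = 0.0432) but not by DESeq2 (adjusted p = 0.0625), nor on leaving out any 1 of the 6 libraries. The sort had left out cells with the Foxp3 reporter signal from both fractions, so low Foxp3 was set by the sort.

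**Figure D5:**
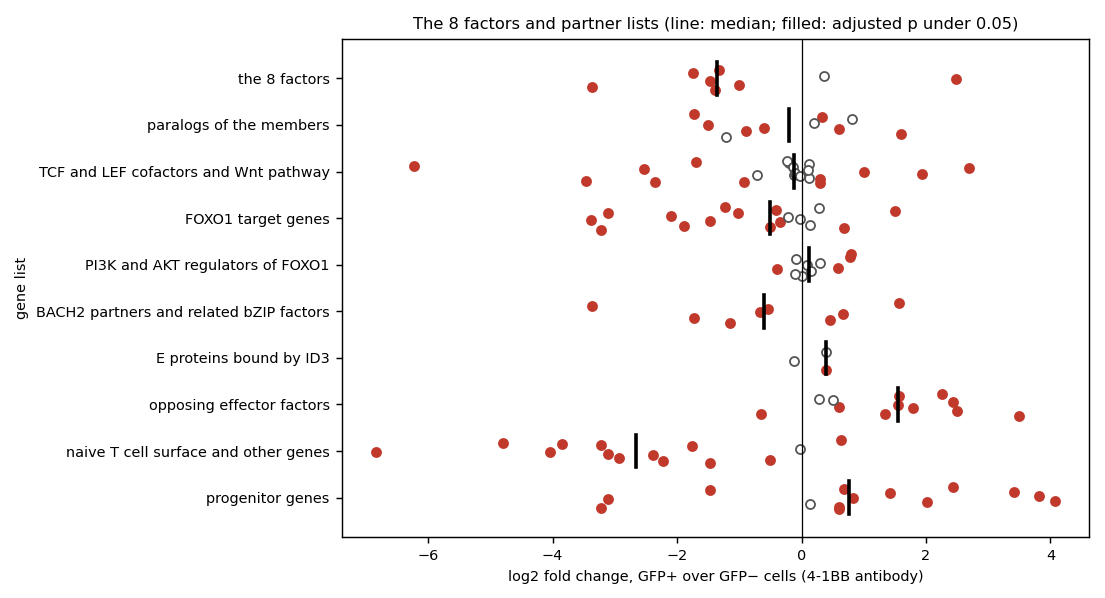
Log2 fold change of GFP+ over GFP− cells for the 8 factors and for genes of 9 lists, one point per gene, with filled points past an adjusted p of 0.05 and a line at the median of each list. Eomes is left out of the plot. The naive genes lie mostly below 0, the opposing effector factors mostly above 0, and the paralogs and Wnt genes on both sides.

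In the comparisons of Eomes-TKO cells with control cells and with GFP− cells, few or no list genes passed. Few of all tested genes passed there either, at 0.0142% under IgG, 0.0427% for 4-1BB antibody in Eomes-TKO mice and 0.0427% against GFP− cells. With 2 or 3 libraries per group, this does not show that the lists were unchanged. Eomes was the only list gene to pass between Eomes-TKO and undivided control cells under IgG (log2 fold change −2.64 ± 0.33, adjusted p = 0.0219), a call that was lost by limma-voom (adjusted p = 0.057) and without either undivided control library or the first or second Eomes-TKO library (adjusted p = 0.0554 to 0.344). For 4-1BB antibody against IgG in Eomes-TKO mice and for Eomes-TKO against GFP− cells, 0 list genes passed. Against GFP+ cells, Eomes-TKO cells under 4-1BB antibody had 12 of 14 naive genes higher and 0 lower (median 2.56), 11 of 17 FOXO1 targets higher and 2 lower (median 0.89), and 1 of 13 effector factors higher and 11 lower (median −2.06). Over all tested genes 15.7% were higher and 18.8% lower there. These list counts share the GFP+ libraries with the comparisons above, and genotype and sort cannot be told apart in them.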

How the data were processed

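Total RNA of 13 libraries was sequenced after ribosomal RNA depletion from 11 ng of RNA, per the labels' protocols. The values are estimated counts per gene as deposited by the authors. The submitters' processing notes name Salmon 1.5.2, STAR 2.7.10a, Trim Galore 0.6.7 and cutadapt 3.4, with GRCm39 as the build. In each library 6.25% to 7.33% of values were fractional, and all estimated counts were rounded. Of 47 library columns, 13 matched the labels and 34 were not used.

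Differences were tested in R 4.3.3 with edgeR 4.0.16 (TMM, filterByExpr, robust quasi-likelihood test, Benjamini-Hochberg adjustment over 14059 genes). All 13 libraries entered 1 model of 5 groups with 8 residual degrees of freedom, and all tests are two-sided. The SE is the size of the log2 fold change over the square root of its F statistic, and levels are TMM-scaled CPM with the SD between libraries. The test was also tried on simulated counts. Alternatives were other normalizations and filters, DESeq2 1.42.0, limma-voom (limma 3.58.1), a fold threshold of 1.5, only the 2 groups compared, a replicate block and leaving out each library. Replicate libraries differed by more than counting noise (chi-square per degree of freedom 7.74 to 29.2). GFP+ and GFP− libraries with one number share a library prefix and so pair, and their deviations from the group means correlated at 0.32, 0.11 and 0.06.

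The members and lists were chosen with earlier results of these data known. Named genes were the 8 members and Eomes, the 3 genes most correlated with each member (log2 CPM with a prior count of 2, mean log2 CPM of at least 2), and up to 4 called genes with the largest fold per list, direction and comparison. Klf2, Slamf6, Tle4, Tle5, Axin2, Ikzf2, Lef1os1 and transcripts inside member loci were named after their values were seen. Some genes that the rule names are not reported here.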

Additional observations from a re-analysis of the deposited data

How the results depend on the processing

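The counts of 6 factors lower and Myb higher in GFP+ cells held under every alternative run, against GFP− and undivided control cells, as did their mirror image, 6 higher and 1 lower, in Eomes-TKO against GFP+ cells. With the replicate block the paired GFP+ and GFP− fit gave 2.44 for Myb and changed none of its 7 member calls. Of all the member values under alternatives, 754 kept their direction and side of the threshold, 33 changed sign, 3 passed only under an alternative and 2 lost the threshold. Members lower in GFP− against undivided control cells became 0 with a fold threshold of 1.5 and 0 to 1 on leaving out libraries. For Eomes-TKO against undivided control cells under IgG, 1 member (Myb) was lower with no filter (adjusted p = 6.83e-05), DESeq2 and the replicate block (−0.81, adjusted p = 0.0233), although these samples share only a number. Upper-quartile scaling moved the median of all genes by −0.137 and −0.138 in the GFP+ comparisons and 0.161 in Eomes-TKO against GFP+ cells, and the share of higher calls was 41.4%, 41.9% and 60.8%, against 55.7%, 54.9% and 45.6%. Counts over all genes moved as follows, higher then lower. A fold threshold of 1.5 gave 1207 and 939 for GFP+ against GFP− cells (2905 and 2315 without it), 1305 and 909 for GFP+ against undivided control cells (2642 and 2167), and 945 and 1208 for Eomes-TKO against GFP+ cells (2214 and 2645), where the replicate block gave 1271 and 1642. For GFP− against undivided control cells (92 and 15) the counts were 434 and 87 with no filter, 250 and 47 by DESeq2, 32 and 9 by limma-voom, 1 and 2 with the fold threshold and 336 and 57 with only the 2 groups, and 216 were higher with the replicate block. For Eomes-TKO against undivided control cells under IgG (0 and 2) they were 33 and 79 with no filter and 8 and 11 with the replicate block, 2 were higher by DESeq2 and 1 with only the 2 groups, and 0 were lower by limma-voom and with only the 2 groups and 1 with the fold threshold. For 4-1BB antibody against IgG in Eomes-TKO mice (6 and 0) they were 224 and 34 with no filter, 61 and 2 by DESeq2 and 19 and 2 with the replicate block, and 10 were higher with upper-quartile scaling and 0 by limma-voom, with the fold threshold and with only the 2 groups. For Eomes-TKO against GFP− cells (1 and 5) they were 74 and 146 with no filter, 11 and 41 by DESeq2, 8 and 27 with the replicate block, 0 and 0 with upper-quartile scaling and with the fold threshold, and 4 were higher with only the 2 groups. Leaving out 1 library at a time gave 1665 to 2405 higher for GFP+ and 0 to 18 higher and 1 to 4 lower for GFP− against undivided control cells, 0 to 2 higher and 0 to 3 lower for Eomes-TKO under IgG, 0 to 80 and 0 to 3 for treatment in Eomes-TKO mice, 0 to 5 and 0 to 13 for Eomes-TKO against GFP− cells, and 1563 to 2373 lower for Eomes-TKO against GFP+ cells. The extremes came without the second undivided control library (0 and 1 for GFP− cells), either undivided control library (1665 and 1746 higher for GFP+ cells), the first Eomes-TKO library under 4-1BB antibody (80 higher for treatment, 1563 lower against GFP+ cells) and the second (13 lower against GFP− cells). Signs turned round only for members that had not passed. In GFP− against undivided control cells the log2 fold change was 0.02 for Foxp1 and −0.01 for Foxo1 with the replicate block and −0.0021 for Foxo1 by limma-voom, and leaving out libraries gave −0.06 to 0.09 for Tcf7, −0.13 to 0.15 for Lef1, −0.35 to 0.06 for Bach2, −0.19 to 0.01 for Satb1, −0.12 to 0.01 for Foxp1 and −0.04 to 0.06 for Foxo1. In Eomes-TKO against undivided control cells under IgG, Satb1 was −0.01 with the replicate block, and leaving out libraries gave −0.08 to 0.16 for Lef1, −0.3 to 0.12 for Bach2 and −0.01 to 0.1 for Satb1. For treatment in Eomes-TKO mice, Tcf7 was −0.08 with the replicate block, and leaving out libraries gave −0.14 to 0.21 for Tcf7, −0.07 to 0.2 for Bach2, −0.12 to 0.26 for Satb1, −0.07 to 0.24 for Foxp1, −0.15 to 0.07 for Foxo1 and −0.02 to 0.17 for Id3. Bach2 ran from −0.02 to 0.26 in Eomes-TKO against GFP− cells. Id3 in Eomes-TKO against GFP+ cells was 0.04 with upper-quartile scaling and 0.02 with the replicate block and ran from −0.31 to 0.1. For list genes, chosen for this after the data were seen, 484 values kept direction and threshold, 57 lost the threshold, 4 gained it and 4 changed sign, which were Tle5 (−0.01 with upper-quartile scaling, −0.07 to 0.19 on leaving out libraries) and Klf2 (−0.15 to 0.01 on leaving out libraries, with 0.00042 without the third GFP− library). The cause of these moves was not tested.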
